A study of Mus musculus with 17 samples.

Results

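The genes followed here set whether a neuron releases GABA or glutamate: Gad1, Gad2, Slc32a1, Slc17a6, Slc17a7 and Slc17a8. They were taken by symbol, and all 6 are among the 15355 genes of the table. GABA, the main inhibitory transmitter of the brain, is made from glutamate by 2 glutamate decarboxylases, GAD67 from Gad1 and GAD65 from Gad2, and is loaded into synaptic vesicles by the transporter VGAT, the product of Slc32a1. Glutamate, the main excitatory transmitter, is loaded into vesicles by VGLUT2 (Slc17a6), VGLUT1 (Slc17a7) or VGLUT3 (Slc17a8). In the adult brain VGLUT2 is the main form in hypothalamus, thalamus and brainstem, and VGLUT1 is the main form in cortex and hippocampus. POMC neurons of the arcuate nucleus, which make pro-opiomelanocortin and restrain feeding, are a mixed population that includes GABAergic, glutamatergic and dual cells.

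The RNA came from mediobasal hypothalamus of POMC RiboTag mice, in which an HA-tagged ribosomal protein is made wherever the Pomc driver is or has been active, and an antibody to the tag pulls down the ribosomes of those cells. Every group carries this tag, and the groups differ in the diet of the dam and in age. Dams received a 45% high-fat diet (HFD) or chow from 6 weeks of age, were mated 4 weeks later and stayed on the diet until postnatal day 21 (P21). There were 4 libraries from offspring of HFD dams at P21, 3 from offspring of chow dams at P21, 5 from offspring of HFD dams at birth (P0) and 5 from offspring of chow dams at P0. The labels number the libraries as biological replicates without naming animals, litters, pools or sexes, so p-values measure the spread between these libraries, which may in part be technical. In such bulk RNA, fewer cells of a type and less RNA per cell cannot be told apart.

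Depth, read from the value of 1 read in each library, was 22.4 to 37.1 M reads (M, mega), and the values are normalized signal in units close to CPM. A single read was worth 0.0275 to 0.0460 units. Pomc itself averaged 8518 ± 978 units in HFD P21 libraries, 6875 ± 4516 in chow P21, 335 ± 408 in HFD P0 and 645 ± 481 in chow P0 (SD, n = 4, 3, 5 and 5). HFD P0 replicate 5 stood apart, with Pomc at 1057 units, at the top of a range that began at 90.7. Chow P21 replicate 3 stood apart among weanlings, with the highest Pomc of all libraries, 12070 units. Its summed level of 4 Agrp neuron genes was 67.5 units, against 694 and 573 in chow P21 replicates 1 and 2. Markers of other cells were present throughout. The summed level of 14 oligodendrocyte genes was 4075 to 7496 units in HFD P21 and 8380 to 18672 in chow P21, against 340 to 465 in HFD P0 and 441 to 1070 in chow P0.

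Gad1, Gad2 and Slc17a7 carry the differences described below, and the genomic stretches just before a RefSeq start of each are printed first, to show the letters around a start of these 3 genes. They were read from RefSeq windows on GRCm38.p6, 5′ to 3′ on the strand of the gene, and each is cut short before any GENCODE exon base in its window. Gad1 lies at chr2:70553072-70602014, Gad2 at chr2:22622205-22693874 and Slc17a7 at chr7:45163949-45176142, each on the plus strand. The RefSeq starts of Gad1 and Gad2 used here lie inside the GENCODE genes, downstream of their first annotated bases. Of the 250 bases before those starts, 163 are printed for Gad1 and 128 for Gad2, so both printed stretches end short of the start. Capitals mark matches to TATAAA or GGGCGG on either strand.
Gad1, chr2:70561879-70562041: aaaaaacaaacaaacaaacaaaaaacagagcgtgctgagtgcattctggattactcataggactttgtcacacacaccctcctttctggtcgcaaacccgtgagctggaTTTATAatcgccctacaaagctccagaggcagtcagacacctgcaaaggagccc
Gad2, chr2:22622077-22622204: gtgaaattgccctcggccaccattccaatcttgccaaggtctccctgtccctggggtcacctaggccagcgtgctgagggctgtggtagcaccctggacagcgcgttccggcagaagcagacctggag
Slc17a7, chr7:45163671-45163920: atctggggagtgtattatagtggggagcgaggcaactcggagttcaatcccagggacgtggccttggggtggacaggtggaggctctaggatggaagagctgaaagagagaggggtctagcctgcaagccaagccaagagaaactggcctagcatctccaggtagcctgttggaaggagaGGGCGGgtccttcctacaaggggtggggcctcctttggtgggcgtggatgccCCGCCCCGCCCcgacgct

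The motifs searched, on both strands of 250 bases before each start, were TATAAA (12.4% of 32851 RefSeq windows hold it), GGGCGG (32.7%), CAGCTG (13.0%) and TAATT (25.0%). The Gad1 window held 1 match to TATAAA, as TTTATA 141 bases before the start, and 1 match to GGGCGG 8 bases before it, in the stretch not printed. The Gad2 window held no match to any of the 4 motifs. The Slc17a7 window held 3 matches to GGGCGG, at 70, 18 and 13 bases before the start, of which the last 2 overlap. These are letter matches only.

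Between birth and weaning, Gad2 was the 1 gene of the 6 that rose in offspring of both diets. Gad1 rose in HFD offspring and Slc17a7 in chow offspring, and the test of the difference between diets in these changes was not passed by either gene. In HFD offspring 2 of the 6 genes were higher at P21 and none was lower, while 50.9% of all tested genes were called, 24.7% higher and 26.2% lower. In chow offspring 2 of 6 were higher and none lower, while 36.1% of all tested genes were called, 18.3% higher and 17.7% lower. A call is a limma adjusted p under 0.05 over all tested genes, and differences are on the log2(value + 1) scale. No gene of the 6 passed between the diets, at P21 or at P0. Pomc and the oligodendrocyte sum, given above, were also higher at P21 than at P0, and the part of cell makeup in the age differences was not tested.

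**Figure D1:**
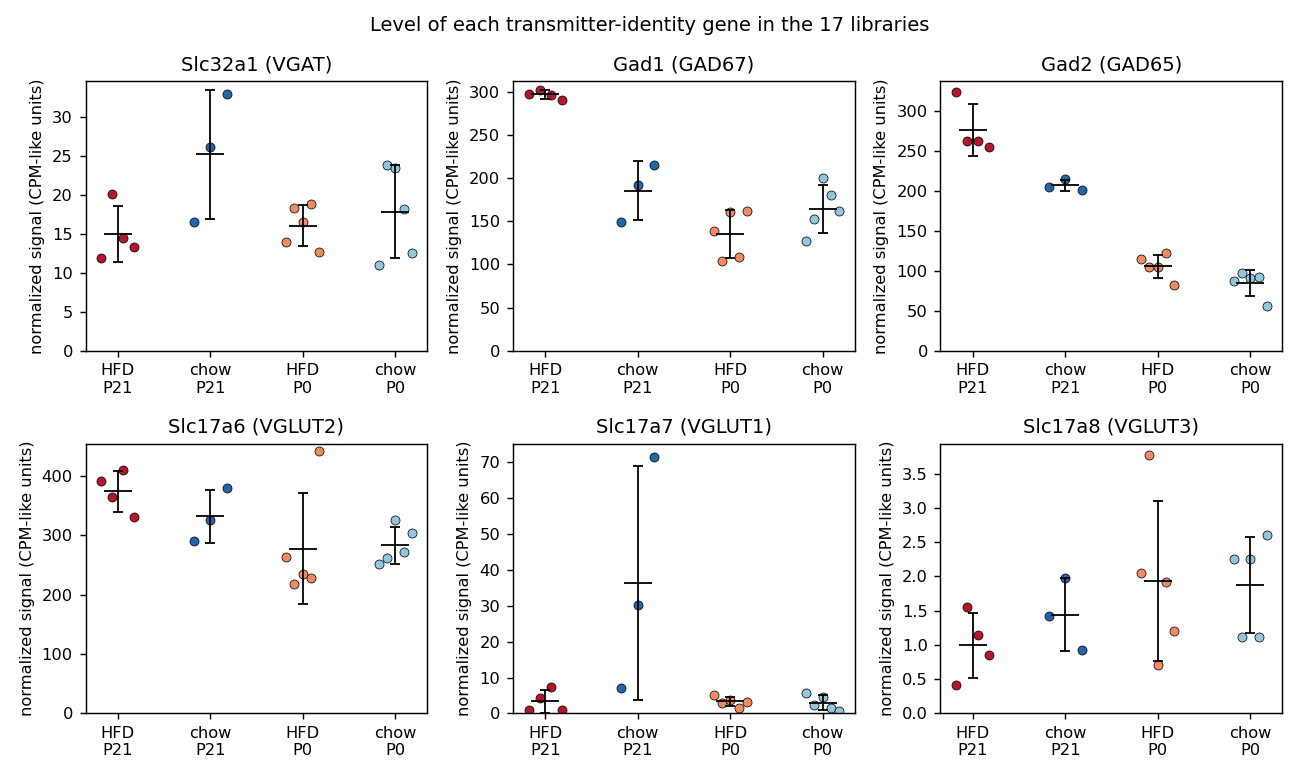
Level of each of the 6 genes in every library, in normalized signal units on a linear axis that starts at 0, with 1 point per library, a horizontal line at the group mean and bars of 1 SD, for HFD P21, chow P21, HFD P0 and chow P0. Gad1 in the 4 HFD P21 libraries sits between 291 and 303 units, above every other library, and Slc17a7 in chow P21 spreads over 7.14 to 71.6 units.

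Gad2 encodes GAD65, the decarboxylase enriched at nerve terminals. It had 324, 262, 262 and 255 units in HFD P21 libraries, 204, 215 and 201 in chow P21, 114, 104, 104, 122 and 82.6 in HFD P0, and 87.8, 97.0, 91.3, 92.9 and 56.2 in chow P0. Every P21 library was above every P0 library, and the HFD P21 libraries all lay above the chow P21 ones. The means were 276 ± 32.4 in HFD P21, 207 ± 7.05 in chow P21, 105 ± 14.7 in HFD P0 and 85.0 ± 16.5 in chow P0 (SD, n = 4, 3, 5 and 5). In this order each of the first 2 gaps, 69.0 and 101 units, exceeded the summed SDs of its neighbours, and HFD P0 and chow P0 did not differ beyond their spread.

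Gad2 rose by 1.38 (log2, SE 0.15, limma adjusted p = 6.45e-06) between P0 and P21 in HFD offspring and by 1.30 (SE 0.18, adjusted p = 0.000145) in chow offspring. The difference between these changes was 0.09 (log2; adjusted p = 0.887). Scaled to pan-neuronal genes, which moved the median of all genes by -0.51 in HFD and -0.45 in chow offspring, the differences were 0.86 and 0.83, and both still passed. Between diets the value was 0.41 (95% interval 0.12 to 0.69, limma adjusted p = 0.166) at P21 and 0.32 (-0.04 to 0.69, adjusted p = 0.598) at P0, so neither passed.

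Gad1 encodes GAD67, the decarboxylase spread through the cell body that supplies most of brain GABA. It had 298, 303, 297 and 291 units in HFD P21 libraries, 149, 193 and 215 in chow P21, 138, 104, 161, 108 and 162 in HFD P0, and 127, 152, 200, 180 and 162 in chow P0. The 4 HFD P21 libraries lay within a coefficient of variation of 1.62%, all above the other 13, while the other 3 groups overlapped one another. The means were 297 ± 4.82 in HFD P21, 186 ± 33.8 in chow P21, 135 ± 27.8 in HFD P0 and 164 ± 27.6 in chow P0. Only the gap between HFD P21 and chow P21, 111 units, exceeded the summed SDs.

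Gad1 rose by 1.16 (log2, SE 0.16, limma adjusted p = 5.47e-05) with age in HFD offspring. In chow offspring its P21 against P0 value was 0.17 (SE 0.18, adjusted p = 0.478), and -0.29 when scaled to pan-neuronal genes. HFD against chow at P21 it differed by 0.69 (SE 0.14, 95% interval 0.38 to 1.00), with an unadjusted limma p of 0.000417 and an adjusted p of 0.0742 over 14070 genes. Lists of neuron markers did not all move the same way between diets at P21. The summed level of 10 arcuate POMC neuron genes was 10645 to 13727 units in HFD P21 and 5114 to 12738 in chow P21. Their median difference was 0.75, and 2 of 10 were called higher (Cartpt and Asb4), against 0.178% of all tested genes called in either direction. None of the 10 was at 0. The sum of 7 genes of ventromedial hypothalamic neurons was 523 to 592 units in HFD P21 and 372 to 432 in chow P21. The groups did not overlap in this sum, nor in 16.1% of all tested genes taken singly. The sum of 4 genes of Agrp neurons was 521 to 1006 units in HFD P21, and 694, 573 and 67.5 in chow P21 replicates 1, 2 and 3. Chow P21 replicates 1 and 2 thus lay within the HFD P21 range, and replicate 3 far below it. Over these 4 genes the median difference was 0.57, with 2 above 0. It was 0.02 over 20 pan-neuronal genes and -0.26 over 6 cortical and hippocampal neuron genes. The part of these neurons in the Gad1 and Gad2 values was not tested. At P0 the Gad1 difference was -0.29 (-0.66 to 0.07, limma adjusted p = 0.628). Its diet by age term was 0.99 (SE 0.24, limma adjusted p = 0.0880), and 1.06 with adjusted p = 0.0251 without HFD P0 replicate 5. Leaving out that library raised the calls of this term over all genes from 4 to 557.

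The ratio of Gad2 to Gad1 depends on which transcript length is used. Per kilobase of merged exons it was 1.42, 1.13, 1.15 and 1.14 in HFD P21, 1.79, 1.45 and 1.22 in chow P21, 1.07, 1.30, 0.845, 1.46 and 0.661 in HFD P0, and 0.895, 0.827, 0.592, 0.671 and 0.451 in chow P0. All 5 chow P0 libraries were thus below 1 and all 7 P21 libraries above it, with HFD P0 on both sides. The merged-exon means were 1.21 in HFD P21, 1.48 in chow P21, 1.07 in HFD P0 and 0.687 in chow P0. Per kilobase of the longest coding transcript they were 0.543, 0.667, 0.480 and 0.309. The change of length multiplies every library's ratio by the same factor, so it cannot alter the order of the groups. With the longest coding transcript the highest ratio of any library was 0.802, in chow P21. The split at 1 thus holds per merged exons only.

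Slc32a1, at chr2:158610767-158615748 on the plus strand, encodes VGAT, which loads GABA and glycine into vesicles. It had 11.9, 20.1, 14.4 and 13.4 units in HFD P21, 16.5, 26.2 and 33.0 in chow P21, 13.95, 18.3, 16.5, 18.8 and 12.7 in HFD P0, and 11.0, 23.9, 23.5, 18.2 and 12.6 in chow P0. All 4 groups overlapped, and no neighbouring gap exceeded the spread. Of its exonic bases 24.9% are shared with the antisense gene model Gm14205, and whether strand was used in counting is not given in the sources used here, so reads of the 2 cannot be told apart.

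No Slc32a1 comparison passed. HFD against chow it was -0.69 (log2, 95% interval -1.29 to -0.08, limma adjusted p = 0.240) at P21 and -0.09 (SE 0.24, adjusted p = 0.937) at P0. P21 against P0 it was -0.11 (adjusted p = 0.722) in HFD and 0.49 (SE 0.30, adjusted p = 0.235) in chow offspring. In HFD offspring, scaling to pan-neuronal genes gave -0.60 with limma adjusted p = 0.0407. That scaling moved the median of all genes by -0.51 in HFD offspring, and most of the change in the Slc32a1 value is this shift. At P21 the diet estimate of Slc32a1 was thus below 0, while those of Gad1 and Gad2 were above 0.

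Slc17a6, at chr7:51622006-51671119 on the plus strand, encodes VGLUT2. Its levels were 391, 365, 409 and 330 units in HFD P21, 290, 325 and 379 in chow P21, 264, 218, 235, 229 and 441 in HFD P0, and 251, 261, 326, 271 and 304 in chow P0. The highest value of all 17 was HFD P0 replicate 5, and without it the HFD P0 libraries were at 218 to 264. In that library the summed level of 7 genes of ventromedial hypothalamic neurons, a VGLUT2 population beside the arcuate nucleus, was 628 units. The other HFD P0 libraries had 154 to 202. Other neuron lists were also highest there within HFD P0, with 1822 units against 314 to 550 for arcuate POMC neurons. Agrp neuron genes had 206 against 72.3 to 90.3, and pan-neuronal genes 17233 against 12323 to 13562. Chow P0 replicate 5 had a ventromedial sum of 522 units with Slc17a6 at 304. The part of these neurons in the Slc17a6 level was not tested.

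P21 against P0 in HFD offspring, Slc17a6 was 0.48 higher (log2, SE 0.20, limma adjusted p = 0.0549), which did not pass, and without HFD P0 replicate 5 it was 0.66 higher (adjusted p = 0.000225). The all-library estimate passed with median-of-ratios scaling (0.50, adjusted p = 0.0415) and was -0.05 when scaled to pan-neuronal genes. In chow offspring the value was 0.23 (SE 0.15, limma adjusted p = 0.268), and -0.24 when scaled to pan-neuronal genes. Between diets it was 0.18 (SE 0.14, adjusted p = 0.546) at P21 and -0.07 (SE 0.18, adjusted p = 0.934) at P0.

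Slc17a7 encodes VGLUT1. It had 0.91, 4.36, 7.33 and 0.83 units in HFD P21, 7.14, 30.2 and 71.6 in chow P21, 5.27, 2.92, 3.74, 1.52 and 3.16 in HFD P0, and 5.80, 2.24, 4.45, 1.47 and 0.80 in chow P0. These values rest on 20 to 1558 reads per library. Only 2 of the 17 libraries, both chow P21, were above 7.33 units, and in units the chow P21 libraries differed from one another by more than any other group did. The coefficient of variation was 92.9% in HFD P21 and 90.0% in chow P21. The means were 3.36 ± 3.12 in HFD P21, 36.3 ± 32.7 in chow P21, 3.32 ± 1.36 in HFD P0 and 2.95 ± 2.10 in chow P0.

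In chow offspring Slc17a7 rose by 2.91 (log2, SE 0.61, limma adjusted p = 0.00254) between P0 and P21, and by 2.18 (adjusted p = 0.0160) without chow P21 replicate 3. In HFD offspring the value was -0.23 (adjusted p = 0.692). HFD against chow at P21 it was -2.90 (SE 0.70, 95% interval -4.43 to -1.38, limma adjusted p = 0.0996), and -3.75 with adjusted p = 0.0476 without chow P21 replicate 1. At P0 the value was 0.24 (SE 0.38, adjusted p = 0.892). The diet by age term was -3.14 (SE 0.82, limma adjusted p = 0.103), and it passed without chow P21 replicate 1 (-3.99, adjusted p = 0.0382) and without HFD P0 replicate 5 (-3.14, adjusted p = 0.0440). The fit without HFD P0 replicate 5 called 557 of all genes, against 4 with all libraries.

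Marker lists of non-neuronal cells moved with Slc17a7 at P21. Chow P21 replicates 1, 2 and 3 had summed levels of 8380, 12357 and 18672 units over 14 oligodendrocyte genes, of 448, 504 and 788 over 14 microglial genes and of 5471, 6360 and 8006 over 15 astrocyte and tanycyte genes. HFD P21 replicates 1 to 4 had 4307, 6732, 7496 and 4075 units for oligodendrocytes, 291, 304, 420 and 268 for microglia, and 3199, 3848, 4186 and 2482 for astrocytes and tanycytes. The 2 HFD libraries with the least Slc17a7, replicates 1 and 4, also had the lowest sums of all 3 lists. The part of these cells in the Slc17a7 values was not tested.

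A list of 8 cortical and hippocampal neuron genes, 7 of them in the table, overlapped between the diets, with sums of 283 to 320 units in HFD P21 and 279 to 332 in chow P21. Most of that sum was Camk2a and Nrgn, which many neurons make. Neurod6, a transcription factor of cortical projection neurons, averaged 1.43 ± 0.324 units in HFD P21 and 0.557 ± 0.303 in chow P21. Tbr1, another forebrain regulator, was at 0 in at least 1 HFD P21 library and in no chow P21 library.

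**Figure D2:**
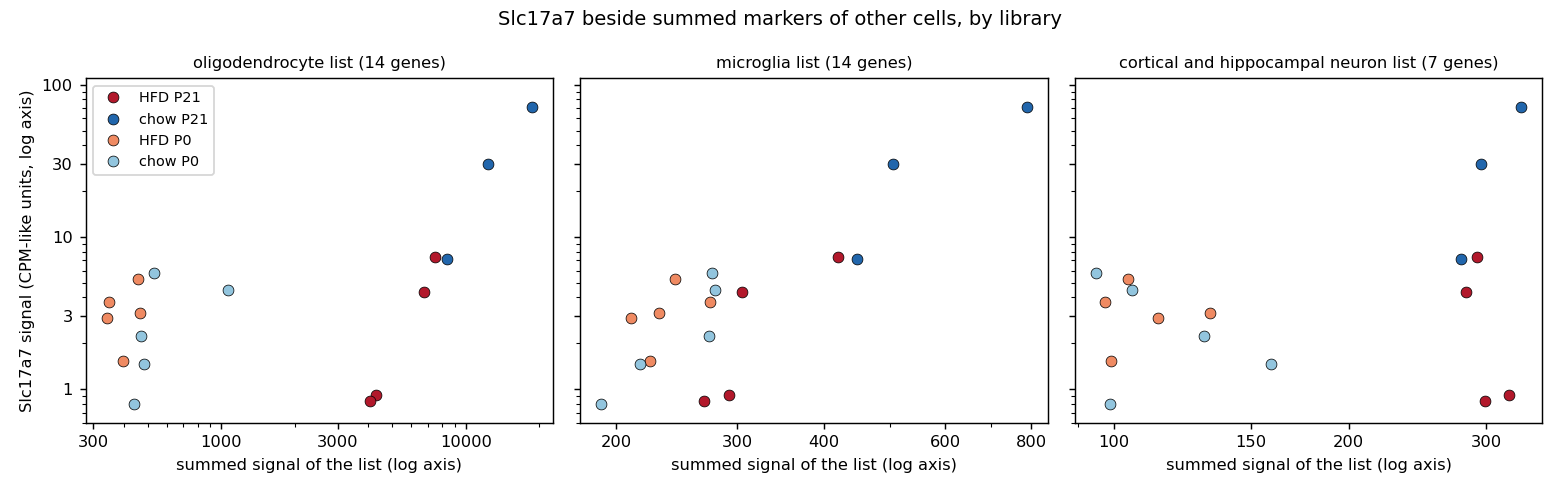
Slc17a7 level of each of the 17 libraries, in normalized signal units, against the summed signal of the oligodendrocyte, microglia and cortical and hippocampal neuron lists in the same library, both on log axes, with 1 point per library coloured by group. The chow P21 library with 71.6 units of Slc17a7 also has the highest oligodendrocyte sum, 18672 units.

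Slc17a8, at chr10:89574020-89621253 on the minus strand, encodes VGLUT3, found in scattered neurons that often release another transmitter too. It was low throughout, with 12 to 89 reads per library. Levels were 0.42, 1.55, 1.15 and 0.86 units in HFD P21, 1.42, 1.98 and 0.92 in chow P21, 2.05, 3.77, 0.70, 1.92 and 1.20 in HFD P0, and 2.26, 1.12, 2.26, 1.12 and 2.60 in chow P0. All groups overlapped. Its 4 comparisons gave log2 values between -0.50 and -0.02, with limma adjusted p from 0.231 to 0.992, and no difference was detected. The coefficient of variation within groups was 36.8 to 60.5%.

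**Figure D3:**
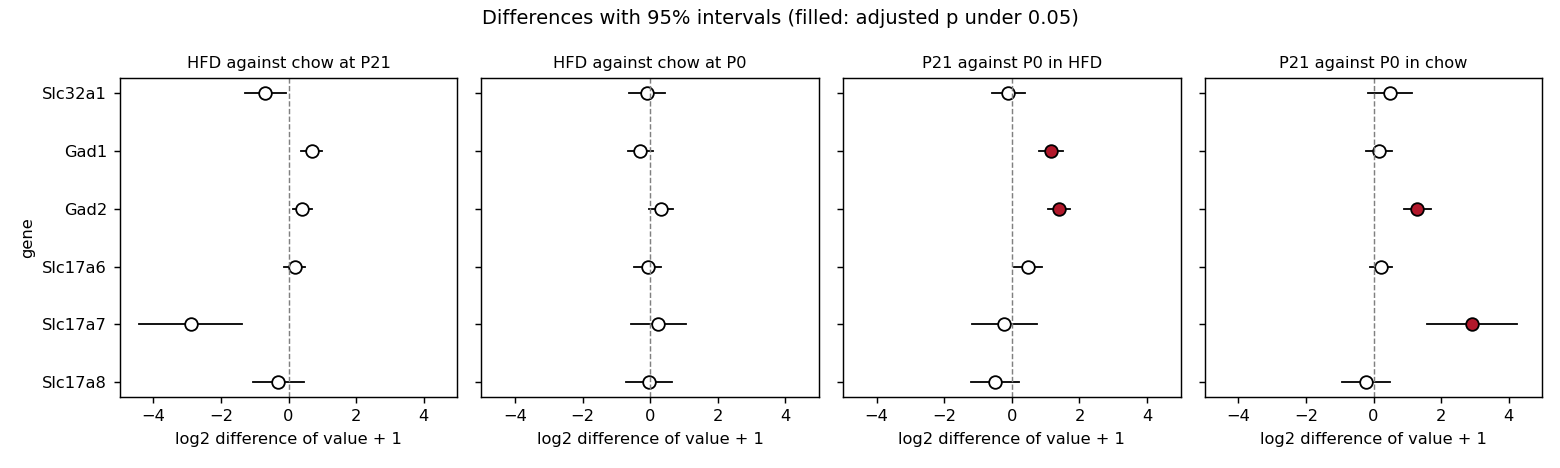
Log2 difference of each gene with its 95% interval in the 4 comparisons, on the log2(value + 1) scale, with calls past an adjusted p of 0.05 filled. The calls are Gad1 and Gad2 with age in HFD offspring and Gad2 and Slc17a7 with age in chow offspring.

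In the diet comparison at P21, 0 of the 6 genes passed limma's test and 0 passed edgeR on the recovered reads, and 0.178% of all tested genes were called, while 4 had an unadjusted p under 0.05, as did 17.01% of all tested genes. For 2 of the 6, Gad1 and Gad2, the groups did not overlap, as was so for 16.1% of all tested genes. At P0, 0 of 6 passed limma or edgeR with 0.291% of genes called, and 0 had an unadjusted p under 0.05, against 9.28% of all genes, and no gene had groups that did not overlap, against 2.45% of all genes. In the diet by age term, limma called 0 of 6 and edgeR 0, against 0.0266% of genes, and 2 had an unadjusted p under 0.05, against 15.2% of genes. With age the groups of 2 genes did not overlap in HFD offspring (38.7% of all genes) and of 2 in chow offspring (37.2%).

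Levels of different genes were compared per kilobase of merged exons. Slc17a6 had the highest mean of the 6 in every group, at 69.2 ± 6.40 units per kilobase in HFD P21, 61.4 ± 8.36 in chow P21, 51.4 ± 17.2 in HFD P0 and 52.3 ± 5.81 in chow P0 (SD, n = 4, 3, 5 and 5). Per kilobase of the longest coding transcript it stayed highest, but in HFD P21 its mean of 90.3 ± 8.35 was then within the spread of Gad1, at 88.5 ± 1.44. Slc32a1 was at 5.35 units per kilobase of merged exons in HFD P21, 9.01 in chow P21, 5.74 in HFD P0 and 6.37 in chow P0, below both decarboxylase genes in every group. Slc17a8 was the lowest, at 0.211 in HFD P21, 0.305 in chow P21, 0.408 in HFD P0 and 0.397 in chow P0.

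VGLUT2 made up nearly all of the vesicular glutamate transporter signal per kilobase. The Slc17a6 share of the 3 VGLUT genes was 98.8 ± 0.836% in HFD P21, 90.6 ± 6.58% in chow P21, 97.9 ± 0.894% in HFD P0 and 98.2 ± 0.914% in chow P0. The Slc17a7 share averaged 0.854 ± 0.746% in HFD P21, 8.90 ± 6.74% in chow P21, 1.23 ± 0.554% in HFD P0 and 1.04 ± 0.779% in chow P0. The chow P21 libraries had 2.39, 8.45 and 15.9%, with a mean of 5.42% without replicate 3, and per longest coding transcript their mean was 12.0%. The ratio of Slc17a6 to Slc32a1 was 13.5 ± 3.22 in HFD P21, 7.17 ± 1.70 in chow P21, 9.53 ± 4.95 in HFD P0 and 8.98 ± 3.01 in chow P0. These ratios are descriptions and were not tested.

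**Figure D4:**
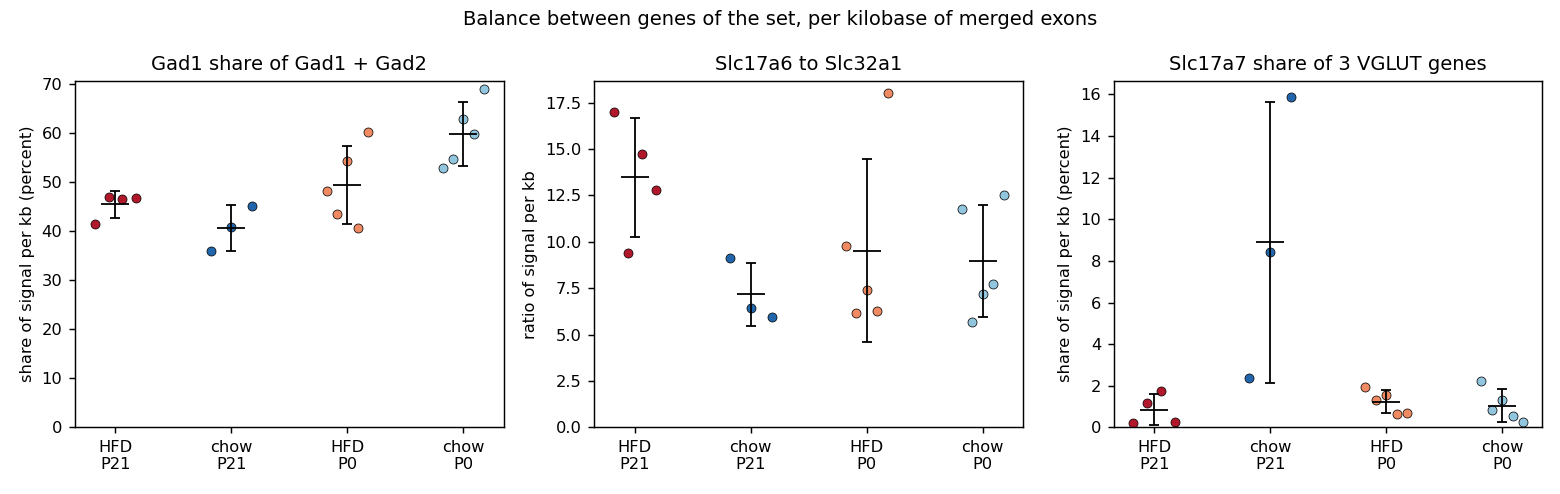
Gad1 share of Gad1 and Gad2 in percent, ratio of Slc17a6 to Slc32a1 and Slc17a7 share of the 3 VGLUT genes in percent, all per kilobase of merged exons, with 1 point per library, a horizontal line at the group mean and bars of 1 SD. Chow P0 has the highest mean Gad1 share, 59.8%, and chow P21 the highest mean Slc17a7 share, 8.90%.

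Genes that supply, recycle and break down GABA and glutamate were read from a list of 25, all of them in the table. With age 13 rose and 4 fell in HFD offspring, while 24.7% of all tested genes were higher and 26.2% lower, and the list median was 0.64 on the log2 scale against -0.05 over all tested genes. In chow offspring 11 rose and 4 fell, while 18.3% of all tested genes were higher and 17.7% lower, and the median was 0.39 against -0.01. Scaled to pan-neuronal genes, 6 rose and 8 fell in HFD offspring with a median of 0.11, and 8 rose and 5 fell in chow offspring with a median of -0.08, so the direction of the list median in chow offspring turned. That scaling called 1669 of all genes higher and 6498 lower in HFD offspring, and 1266 higher and 5030 lower in chow offspring. Between diets none of 25 passed at P21, where 7 had an unadjusted p under 0.05 (17.01% of all genes), and none of 24 at P0, where 4 did (9.28% of all genes). At P21, 2 of 25 were called lower when scaled to pan-neuronal genes. That scaling called 86 of all genes between diets at P21, against 25 in the main fit, and moved the median of all genes by -0.06.

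Several enzymes and transporters of glutamate supply rose with age. Gls2, a mitochondrial glutaminase that makes glutamate from glutamine, rose by 3.33 (log2, limma adjusted p = 6.55e-06) in HFD and by 3.16 (adjusted p = 5.23e-05) in chow offspring. Got1, a cytosolic aspartate aminotransferase, averaged 482 ± 74.6 units in HFD P21 and 99.7 ± 39.5 in HFD P0, against 422 ± 81.8 in chow P21 and 116 ± 26.6 in chow P0. Slc38a1, a glutamine carrier of neurons, rose by 0.84 in HFD and 0.64 in chow offspring, and the mitochondrial carriers Slc25a12 and Slc25a22 rose by 0.81 and 0.70 in HFD and by 0.60 and 0.63 in chow offspring. Got2, the mitochondrial aminotransferase, and Slc1a1, a neuronal glutamate uptake carrier, passed in HFD offspring at 0.64 and 0.65. Scaled to pan-neuronal genes, Slc38a1, Slc25a12, Slc25a22, Got2 and Slc1a1 no longer passed, and Gls2 and Got1 still did. The call of Slc1a1 was also lost with rescaled columns, without the intensity trend, with edgeR and without HFD P0 replicate 2, 3 or 4 or HFD P21 replicate 1, 3 or 4. In chow offspring that of Slc25a12 was lost without chow P21 replicate 1 or 2, and that of Slc25a22 without the trend, with edgeR and without chow P0 replicate 1 or 2 or any 1 of the chow P21 libraries.

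Genes of GABA breakdown and of uptake by glia moved in both directions. Abat, the GABA transaminase, averaged 455 ± 50.7 units in HFD P21 and 200 ± 81.4 in HFD P0, against 482 ± 20.9 in chow P21 and 201 ± 47.9 in chow P0. Maob, a monoamine oxidase that in glia can take part in GABA synthesis from putrescine, rose by 2.73 in HFD and 1.90 in chow offspring, and Aldh1a1, an aldehyde dehydrogenase, by 1.67 and 3.01. Slc1a2, the main astrocyte glutamate carrier, rose by 2.04 in HFD and 2.74 in chow offspring, and Glul, astrocyte glutamine synthetase, by 0.82 and 1.60, of which the HFD value was no longer called when scaled to pan-neuronal genes. Slc6a11, the astrocyte GABA carrier GAT3, passed in chow offspring alone at 1.09. The genes that fell were Slc6a13 (GAT2, -2.58 in HFD and -1.82 in chow), Slc38a5 (-1.85 and -1.89) and Slc38a2 (-1.01 and -0.58), with Slc38a3 (-0.93) in HFD and Slc1a4 (-0.64) in chow offspring. The chow call of Slc38a2 was lost without chow P21 replicate 1 or 2, and that of Slc1a4 without chow P21 replicate 3. All these calls had limma adjusted p of 0.0388 or less.

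At P21 the genes of the list with the smallest p between diets included 2 glial carriers that clear transmitter, both with lower means under HFD. Slc6a11 averaged 181 ± 48.8 units in HFD P21 and 392 ± 80.5 in chow P21 (log2 -1.13, limma adjusted p = 0.0649). Slc1a3, the glial glutamate carrier GLAST, averaged 190 ± 28.9 in HFD P21 and 325 ± 34.3 in chow P21 (-0.78, adjusted p = 0.0649). The median over the 15 astrocyte and tanycyte genes, which include Slc1a3 and Slc1a2, was -0.87 in the same comparison, and the part of astrocyte RNA in these values was not tested. At P0 Slc38a2 (0.31) and Slc38a5 (-0.59) were among those with the smallest p. None of the 25 passed in the diet by age term, with Slc6a11 (-1.08) and Slc1a3 (-0.67) among the nearest.

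**Figure D5:**
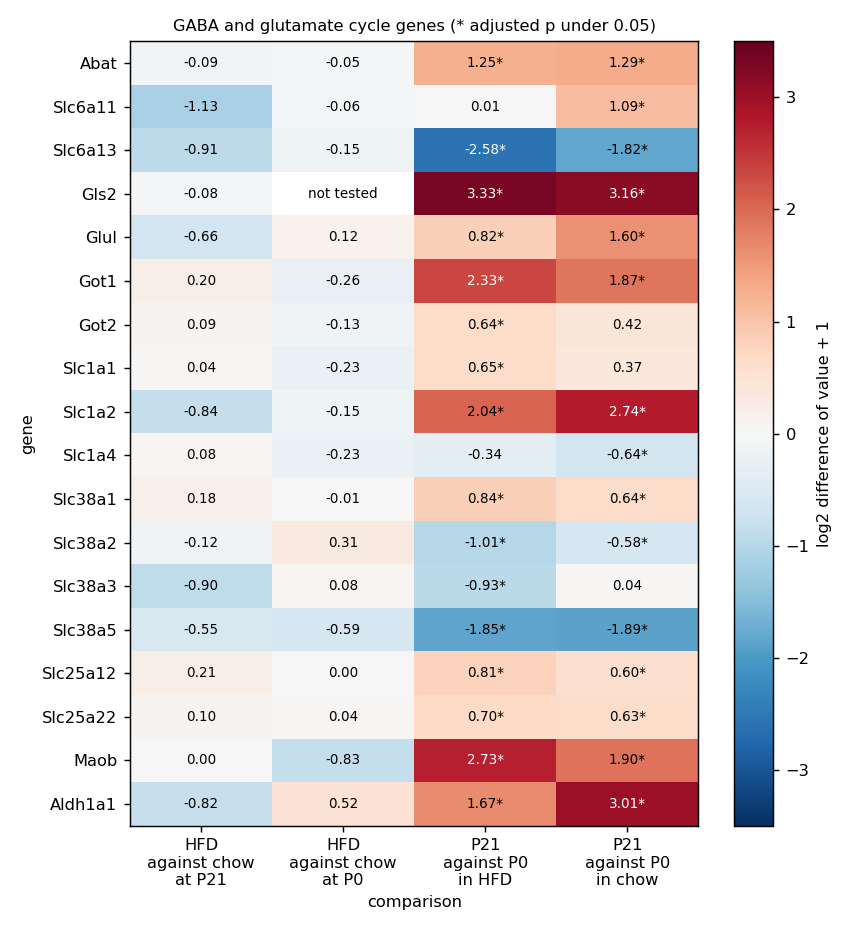
Heat map of the log2 differences, on the log2(value + 1) scale, of 18 genes that supply, recycle or break down GABA and glutamate and were called with age, in the 2 diet and 2 age comparisons, where red is higher, blue is lower and an asterisk marks an adjusted p under 0.05. Gls2 shows a rise of 3.33 with age in HFD and 3.16 in chow offspring, and none of those shown is called between diets.

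Of 16 genes that mark other transmitters, 11 are in the files used here. With age 5 of 10 tested rose and 4 fell in HFD offspring, and 5 of 10 rose and 3 fell in chow offspring, while 50.9% of all tested genes were called in HFD and 36.1% in chow offspring. Scaled to pan-neuronal genes, with the counts over all genes given above, 5 rose and 5 fell in HFD and 4 rose and 3 fell in chow offspring. Most of those that rose belong to monoamine neurons: Slc18a2, the vesicular monoamine carrier, by 2.46 in HFD and 1.67 in chow, Ddc by 1.95 and 1.72, Th, the rate-limiting enzyme of catecholamine synthesis, by 1.43 and 1.77, and the histamine enzyme Hdc by 1.78 and 1.38. The dopamine carrier Slc6a3 rose in HFD offspring at 1.38, and the glycine carrier Slc6a9 in chow offspring at 0.92, which was lost with pan-neuronal scaling and without chow P21 replicate 3. The serotonin carrier Slc6a4 (-2.85 in HFD and -2.51 in chow), the monoamine carrier Slc29a4 (-1.04 and -0.91) and the vesicular acetylcholine carrier Slc18a3 (-1.25 and -1.58) fell, as did the choline carrier Slc5a7 in HFD offspring (-1.01), a call lost with edgeR and without HFD P0 replicate 1 or 3 or HFD P21 replicate 1 or 2. The limma adjusted p of these calls was at most 0.0261.

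None of the other-transmitter genes passed between diets. At P21 the smallest p was for Slc6a9 (log2 -1.03, limma adjusted p = 0.0792), then Slc5a7 (-1.29) and Slc18a2 (0.54), and 2 of 8 had an unadjusted p under 0.05, against 17.01% of all genes. At P0 Slc29a4 (0.29), Hdc (-0.64) and Slc18a3 (-0.46) came first, and 1 of 10 had an unadjusted p under 0.05, against 9.28% of all genes. None of 11 passed in the diet by age term, with Slc6a9 (-1.30, adjusted p = 0.0830), Slc18a2 (0.78) and Slc5a7 (-0.78) first.

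Transcription factors that direct GABAergic or glutamatergic fate in development formed a list of 32, of which 28 are in the files used here. With age 23 of 28 fell and 1 rose in HFD offspring, with a median of -1.92, while 26.2% of all tested genes were lower. In chow offspring 15 of 28 fell and none rose, with a median of -1.31, while 17.7% of all tested genes were lower. Scaled to pan-neuronal genes, 24 fell in HFD offspring, where 6498 of all genes were lower, and 21 fell in chow offspring, where 5030 were lower. Among regulators of GABAergic neurons, Dlx1, Dlx2, Dlx5, Sp9, Lhx1, Lhx6, Lhx8 and Meis2 fell in both diets, and Dlx6, Gata2, Gata3 and Tal1 in HFD offspring. The values were -2.75 in HFD and -2.09 in chow offspring for Dlx1, and -2.64 and -2.85 for Sp9. Of regulators linked to glutamatergic neurons and progenitors, Pax6, Neurog2, Neurod6, Fezf1, Fezf2 and Sim1 fell in both, and Neurod1, Neurod2, Tbr1 and Eomes in HFD offspring. In chow offspring the call of Meis2 was lost without chow P21 replicate 1 or 2, and that of Sim1 with edgeR and without chow P0 replicate 1 or 2 or chow P21 replicate 3. In HFD offspring that of Tbr1 was lost with edgeR and without HFD P21 replicate 1. Nr5a1, which specifies ventromedial hypothalamic neurons, was the gene that rose, by 1.35 in HFD offspring, a call lost with pan-neuronal scaling, with edgeR and without HFD P0 replicate 3.

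None of these factors passed between diets, with 24 tested at P21 and 28 at P0. The smallest p values at P21 were for Meis2 (log2 -1.68, limma adjusted p = 0.106), Lhx6 (-1.49) and Lhx1 (-1.10), and at P0 the smallest was for Sim1 (0.76, adjusted p = 0.372). In the diet by age term they were for Lhx1 (-1.55, adjusted p = 0.137), Meis2 (-1.67) and Neurod1 (-1.34). An unadjusted p under 0.05 was reached by 6 of 24 at P21 (17.01% of all genes), by 4 of 28 at P0 (9.28%) and by 4 of 28 in the diet by age term (15.2%).

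The genes whose log2 levels followed each of the 6 most closely over the 17 libraries were read by Pearson's r, as a description over libraries that share 4 groups. For Gad2 they were Nr3c1, the glucocorticoid receptor (r = 0.97), Fgfr1op2 (0.97) and Bbx (0.96), and for Gad1 G3bp2 (0.94), an RNA-binding protein of stress granules, Chordc1 (0.94) and Nudcd1 (0.93). For Slc17a6 they were Pepd (0.92), Aplp2 (0.91), a relative of the amyloid precursor protein, and Ndufs1 (0.90), and for Slc32a1 Bcan (0.86), which encodes the matrix proteoglycan brevican, Tst (0.82) and Sec14l2 (0.81). For Slc17a7 they were Laptm5 (0.93) and Trem2 (0.91), both genes of microglia in brain, and Timp4 (0.90). For Slc17a8 they were Tbx15 (0.88), Flt4 (0.81) and Lamc3 (0.77), all low, with no group mean above 3.26 units.

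With the group means removed, other genes came first for most of the 6. They were Snrnp35 (0.91), Nudcd1 (0.88) and Tmeff2 (0.87) for Gad1, Rpia (0.91), Bcorl1 (0.88) and Kctd12 (0.85) for Gad2, and Kif23 (0.93), Tmem125 (0.87) and Ttc16 (0.82) for Slc32a1. Slc17a6 was followed by Cyp51 (0.92), an enzyme of cholesterol synthesis, Aldh7a1 (0.92) and Bdh1 (0.91), Slc17a7 by Gatm (0.91), Laptm5 (0.88) and Cplx1 (0.87), and Slc17a8 by Tbx15 (0.85), Sp110 (0.81) and Palb2 (0.78). Each set, here and above, was the top of 15036 genes ranked by r. Several of these genes were low, with group means of 0.53 to 1.255 units for Ttc16, 0.12 to 1.03 for Tbx15 and 0.87 to 1.54 for Sp110. Among the 6 themselves, Gad1 and Gad2 had r = 0.70 in levels and -0.18 with group means removed, while Gad1 and Slc17a6 had 0.77 and 0.66.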

How the data were processed

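The deposited table holds normalized signal per gene in CPM-like units for 17 libraries, made by the authors with TopHat2 2.0.13, Picard 1.80, HTSeq 0.6.1 and edgeR on mm10, per the submitters' processing notes; 15 empty columns were not used. Libraries were sequenced as single reads of 50 bases, per the labels' protocols. The values step in whole reads, which gave the depth and, as an added alternative, read counts for edgeR 4.0.16. Floors cover counting error only. Intervals of log2 differences come from the limma fits and, like the p-values, measure the spread between libraries, which may in part be technical. Because the table is signal and not counts, each comparison was fitted with limma 3.58.1 (R 4.3.3, intensity trend) on log2(value + 1), over genes with a value above 1 in no fewer libraries than the smaller group holds, with two-sided Benjamini-Hochberg adjustment at 0.05. All 6 genes were tested in every comparison. The fit was tested on simulated data. Lengths and coordinates came from GENCODE M21 (GRCm38), which holds 14404 of the symbols. The 6 genes and the lists were chosen with earlier results of these data known. Named were the 6 genes, every list gene past the threshold, otherwise the 3 with the smallest p in each comparison, and the 3 genes most like each of the 6; a few genes that this rule names are not reported here, though they stay in the counts of their lists.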

Additional observations from a re-analysis of the deposited data

Results flagged for a closer look

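In all, 3 values stood apart from the rest of their group, out of 18 groups of 4 or more libraries that were examined, where chance flags about 1 in 20. Gad2 in chow P0 replicate 5 was 56.17 units, against 87.8 to 97.0 in the other chow P0 libraries. Gad2 in HFD P21 replicate 1 was 324.12 units, against 255 to 262 in the other HFD P21 libraries. Slc17a6 in HFD P0 replicate 5 was 441 units, against 218 to 264 in the other HFD P0 libraries. The same library had a summed level of 7 ventromedial hypothalamic genes of 628 units, against 154 to 202. Its sums of arcuate POMC and pan-neuronal genes, 1822 and 17233 units, were also above the other HFD P0 libraries. Those had 314 to 550 and 12323 to 13562.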

How the results depend on the processing

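The 4 age calls on the 6 genes (Gad1 and Gad2 in HFD, Gad2 and Slc17a7 in chow offspring) kept their direction and passed under every alternative run, leaving out each library included. The count of the 6 called between diets at P21 was 0, but 1 (Slc17a7, lower) when scaled to pan-neuronal genes (log2 -2.85, limma adjusted p = 0.0492) and with a replicate block (-2.58, 0.0342), which omits HFD P21 replicate 4, and it was 0 to 1 with 1 library left out. The labels do not say whether replicate numbers pair the samples. Between diets same-number deviations correlated at -0.17 to 0.49 at P0 and -0.04 to 0.10 at P21. Between ages they correlated at -0.10 to 0.09 in chow and -0.05 to 0.12 in HFD offspring. At P0, HFD replicates 1, 2 and 5 were most like the chow library of the same number (r = 0.17, 0.27 and 0.49). Pairing at P0 was thus not settled. The replicate block also gave Slc17a6 with age in HFD offspring as 0.66 (adjusted p = 0.000337), without HFD P0 replicate 5, and lost the age calls of Slc5a7 in HFD and Slc1a4 in chow offspring, while fitting all groups together gave 0.48 (0.0263) for Slc17a6. The diet by age count was 0 to 2 with 1 library left out. Signs turned, with none past the threshold, in edgeR on the recovered reads, chosen after seeing the data (Slc17a8 HFD against chow at P0 0.0503; Slc17a7 with age in HFD 0.0146), when scaled to pan-neuronal genes (with age Gad1 in chow -0.29, Slc17a6 in chow -0.24 and in HFD -0.0513) and when columns were rescaled to the same sum (diet by age of Gad2 -0.0166). With 1 library left out, HFD against chow at P0 spanned -0.22 to 0.15 for Slc17a8, -0.24 to 0.0215 for Slc32a1 and -0.00223 to 0.48 for Slc17a7, and Slc17a7 with age in HFD spanned -0.64 to 0.0872. The cause was not tested. Over all genes, calls between diets at P21 were 25 (14 higher, 11 lower), but 86 (19 and 67) when scaled to pan-neuronal genes, 13 higher and 22 lower with rescaled columns, 16 with no filter, 15 with edgeR, 1 without the intensity trend and 3 to 51 with 1 library left out. At P0 they were 41, but 10 in 1 fit of all groups, 104 with the replicate block and 18 to 135 with 1 library left out. The diet by age term called 4, but 9 with rescaled columns, 2 without the trend, 12 with the block, 14 with edgeR and 2 to 557 with 1 library left out. With age, pan-neuronal scaling gave 1669 higher and 6498 lower in HFD offspring (main 3521 and 3729) and 1266 and 5030 in chow offspring (main 2669 and 2582), and rescaled columns gave 2851 and 4583 in HFD offspring. Per longest coding transcript, Gad1 shares of the 2 decarboxylases were 64.9% in HFD P21, 60.2% in chow P21, 68.1% in HFD P0 and 76.6% in chow P0, against 45.4%, 40.6%, 49.3% and 59.8% per merged exons.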
